A study of Mus musculus with 6 samples.

Results

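The genes described here were 59 genes of mitosis, the spindle and the kinetochore, found by symbol among the 34652 genes of the expression table. They were sorted by function into 8 classes: mitotic entry, spindle checkpoint and anaphase, the chromosomal passenger complex, centromere and kinetochore, kinesin motors, spindle assembly, cytokinesis, and condensin with chromosome structure. All 59 were in the table, and each had a value above 0 in all 6 libraries.

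RNA was sequenced from macrophages of the cerebrospinal fluid of mice with leptomeningeal metastasis, 12 days into the model. All libraries came from Cx3cr1CreER:mTmG mice treated with tamoxifen and inoculated with LLC-LeptoM, a Lewis lung carcinoma derivative. In these mice tamoxifen switches cells that express Cx3cr1 at that time, and their descendants, from a red to a green membrane reporter. The 3 libraries of resident macrophages, labelled dLAM, were sorted as CD45+CD11b+F4/80+Ly6C-GFP+ cells. The 3 libraries of monocyte-macrophages, labelled Mono-MΦ, were a mixture of CD45+CD11b+F4/80+GFP- cells and CD45+CD11b+F4/80lowLy6C+GFP- cells, so they pooled monocytes with macrophages. The labels give no age, sex or strain, and do not say whether libraries came from separate mice or from pools. P-values therefore describe library-to-library spread only, and some of it may be technical.

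Values are FPKM, a fragment number corrected for both the length of a gene and the size of the library, which can be set side by side between genes. Values in a series are always given for libraries 1, 2 and 3 of a group in that order. Estimated depth lay between 1.23e+07 and 1.70e+07 fragments per library, and 10281 to 11470 genes reached 1 FPKM. Ddx3y, a Y-linked gene, was at 10.1 FPKM in dLAM library 3 and 10.6 FPKM in monocyte-macrophage library 2, and between 1.56 and 2.68 FPKM in the other libraries. Of the genes of the sort, Ly6c2 was at 15.0, 14.4 and 11.5 FPKM in dLAMs and at 69.2, 83.8 and 124 FPKM in monocyte-macrophages. The macrophage marker C1qa, a complement subunit, was at 570, 478 and 410 FPKM in dLAMs but at 5.2, 6.84 and 9.21 FPKM in monocyte-macrophages. Csf1r, the receptor for the macrophage growth factor, was present in both groups, at 276, 256 and 219 FPKM and at 147, 112 and 104 FPKM. Lyz2, the most abundant of the macrophage markers, went the other way, at 4140, 4530 and 3120 FPKM against 9970, 6580 and 9160 FPKM. Of the 8 macrophage markers, 4 were higher in every dLAM library than in any monocyte-macrophage library, 1 was lower and 3 overlapped.

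A dividing cell enters mitosis when cyclin-dependent kinase 1 binds its cyclins. It then condenses its chromosomes, attaches them through kinetochores to spindle microtubules, and waits at the spindle checkpoint until all are attached. The anaphase-promoting complex (APC/C) then marks cyclin B and securin for destruction, separase opens the cohesin ring, and the cell splits in cytokinesis. Many of these genes are transcribed mostly late in the cell cycle, when activators replace a repressive complex at their promoters, and their RNA is low in resting cells. Tissue macrophages can divide in place, whereas monocytes arise from dividing precursors in the bone marrow.

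The mitotic genes were lower in dLAMs than in monocyte-macrophages. Of the 58 members tested (1 FPKM or more in 3 or more of the 6 libraries), 55 were lower in dLAMs, 0 were higher and 3 did not pass (limma on log2(FPKM + 1), Benjamini-Hochberg adjusted p under 0.05 over 11317 genes). Among all 11317 genes tested, 10.6% were lower in dLAMs and 19.9% were higher. The ratio of the monocyte-macrophage mean to the dLAM mean had a median of 3.34 over the 59 members and ran from 1.07 to 5.08, against a median of 0.958 over all genes tested. It was at least 2 for 56 members, at least 3 for 41 and at least 4 for 11. The median log2 fold change, dLAM minus monocyte-macrophage on the log2(FPKM + 1) scale, was -1.38 for the 58 members tested and 0.06 for all genes tested.

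The filter kept 2 members, Ccnb1 and Ttk, that reached 1 FPKM in no dLAM library, and it left out Kif18a. With no filter all 59 members could be tested, and 53 were lower and 0 higher, where 4.99% of 22145 genes were lower and 13.0% were higher. Mad2l1 and Cenpk were the calls lost without the filter (limma adjusted p = 0.051 and 0.052). In 58 of the 59 members all 3 dLAM values lay below all 3 monocyte-macrophage values, as did 16.9% of the 11317 genes tested. Pttg1 was the member whose groups overlapped. The transcripts were still detected in dLAMs, where 53 members reached 1 FPKM in every library. A mean of at least 10 FPKM was reached by 8 members in dLAMs and by 27 in monocyte-macrophages. In bulk RNA, fewer cycling cells and less mitotic RNA per cell cannot be told apart.

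**Figure D1:**
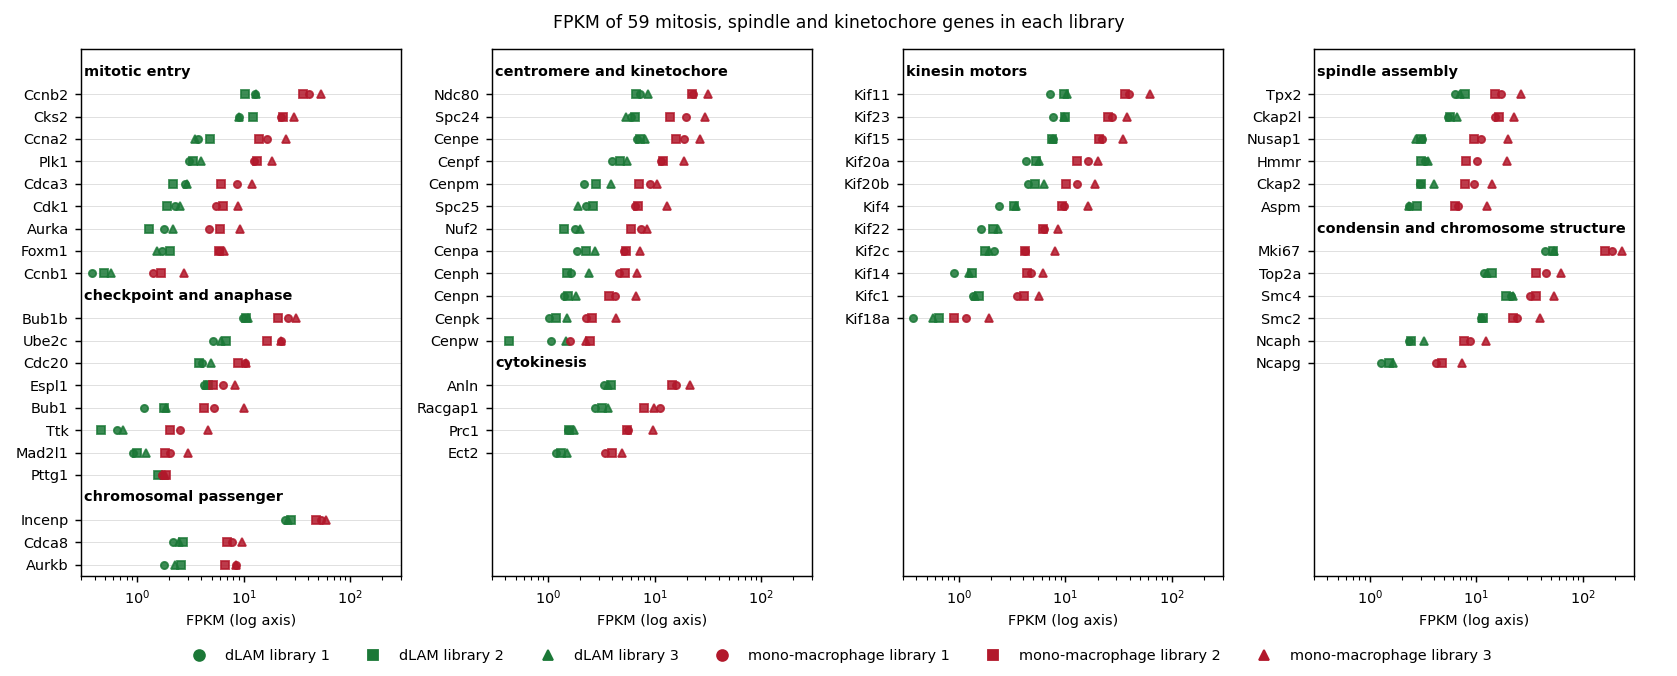
FPKM on a log axis of each of the 59 members in the 6 libraries, with genes sorted by function and each point 1 library. The green dLAM points lie to the left of the red monocyte-macrophage points for every member but Pttg1, and Mki67 is the most abundant member in both groups.

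The members' summed level was 296, 326 and 340 FPKM in dLAMs and 932, 837 and 1290 FPKM in monocyte-macrophages. Without Mki67, the most abundant member, it was 251, 274 and 286 FPKM against 746, 675 and 1060 FPKM. Monocyte-macrophage library 3 held the highest value of its group for 56 of the 59 members, and library 2 the lowest for 41. Most members thus ranked the libraries of that group alike. The same ranks were not counted over all genes tested. The median coefficient of variation of a member was 13.7% over dLAM libraries and 25.5% over monocyte-macrophage libraries, against 11.2% and 16.2% for all genes tested. Monocyte-macrophage library 1 was above every dLAM library for 58 members, and libraries 2 and 3 were each above for 59. Such counts for single libraries were not made over all genes tested. The median ratio to the dLAM mean was 2.87, 2.72 and 4.11 for monocyte-macrophage libraries 1, 2 and 3.

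Markers of other cells also differed between the groups. The summed level of 10 neutrophil markers was 1320 to 1700 FPKM in dLAMs and 2030 to 12000 FPKM in monocyte-macrophages, and 4 of the 10 were lower in dLAMs and 0 higher, or 1, Mmp8, with no filter. The most abundant, the calcium-binding protein gene S100a9, was at 715, 559 and 585 FPKM against 754, 2660 and 4450 FPKM and did not pass (limma adjusted p = 0.058). Ngp, a neutrophil granule gene, was at 432, 463 and 294 FPKM against 566, 2220 and 3400 FPKM (limma adjusted p = 0.037, or 0.09 with no filter). Granulocyte-monocyte progenitor markers summed to 41.4 to 58.5 FPKM in dLAMs and 199 to 439 FPKM in monocyte-macrophages, with 7 of 8 tested lower in dLAMs and 1, Kit, higher, and with 6 of 9 lower and 2 higher with no filter. These cells divide in the bone marrow. Of their list, the granule protease gene Elane was at 17.0, 16.1 and 12.6 FPKM against 83.6, 193 and 164 FPKM. Mpo, the myeloperoxidase gene, was at 14.5, 17.3 and 10.5 FPKM against 44.9, 108 and 80.4 FPKM. The 2 genes higher in dLAMs with no filter were Kit and Cd34. Kit was at 6.85, 7.79 and 7.09 FPKM against 0.423, 1.39 and 0.997 FPKM. Cd34 was at 1.15, 0.603 and 0.631 FPKM against 0.193, 0.0796 and 0.0896 FPKM. Over monocyte-macrophage libraries 1, 2 and 3 the neutrophil sum was 2030, 7050 and 12000 FPKM, the progenitor sum 199, 439 and 436 FPKM and the mitotic sum 932, 837 and 1290 FPKM. Library 3 was thus highest in the neutrophil and mitotic sums, and the lowest library was 1 for the neutrophil sum and 2 for the mitotic sum. The part of these cells in the mitotic difference was not tested.

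Other marker lists had higher sums in dLAMs. Many of their genes pass a filter on low values only because they are high in dLAMs, so the counts here are from the fit with no filter. T cell markers summed to 171 to 215 FPKM in dLAMs and 5.07 to 26.9 FPKM in monocyte-macrophages, with 8 of 8 genes higher in dLAMs and 0 lower, among them the receptor subunits Cd3g (69.8, 52.1 and 51.8 against 1.59, 7.73 and 7.66 FPKM) and Cd3e. Dendritic cell markers summed to 79.8 to 131 FPKM against 12.8 to 17.4 FPKM, with 7 of 8 genes higher in dLAMs and 0 lower. B and plasma cell markers summed to 18.5 to 31.8 FPKM against 1.49 to 4.69 FPKM, with 6 of 7 genes higher in dLAMs, and Jchain, a gene of secreted antibody, did not pass (limma adjusted p = 0.058). Mast cell markers summed to 34.5 to 79.4 FPKM against 0.114 to 0.637 FPKM, with 5 of 6 genes higher in dLAMs and Ms4a2, a subunit of the receptor for immunoglobulin E, at -0.01 on the log2 scale. The mast cell protease genes Cpa3, Mcpt4 and Cma1 were listed at 0 in every monocyte-macrophage library. Carcinoma markers summed to 27.0 to 31.8 FPKM against 1.99 to 3.18 FPKM, with 3 of 7 genes higher in dLAMs and 0 lower. Nearly all of that sum came from the cadherin gene Cdh1, at 22.0, 21.0 and 21.9 FPKM against 2.20, 1.53 and 1.39 FPKM, and from Epcam, an epithelial adhesion gene, at 5.86, 4.70 and 7.50 FPKM against 0.0716, 0.279 and 0.144 FPKM. The keratin gene Krt18 was also higher in dLAMs, at 1.69, 1.1 and 1.5 FPKM against 0.522, 0.305 and 0.21 FPKM (limma adjusted p = 0.013). The other keratin genes of the list, Krt7, Krt8 and Krt19, were at 0.491 FPKM or below in every library and did not pass. The same held for the claudin gene Cldn4. Each of these sums was higher in every dLAM library, where the mitotic sum was lower.

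**Figure D2:**
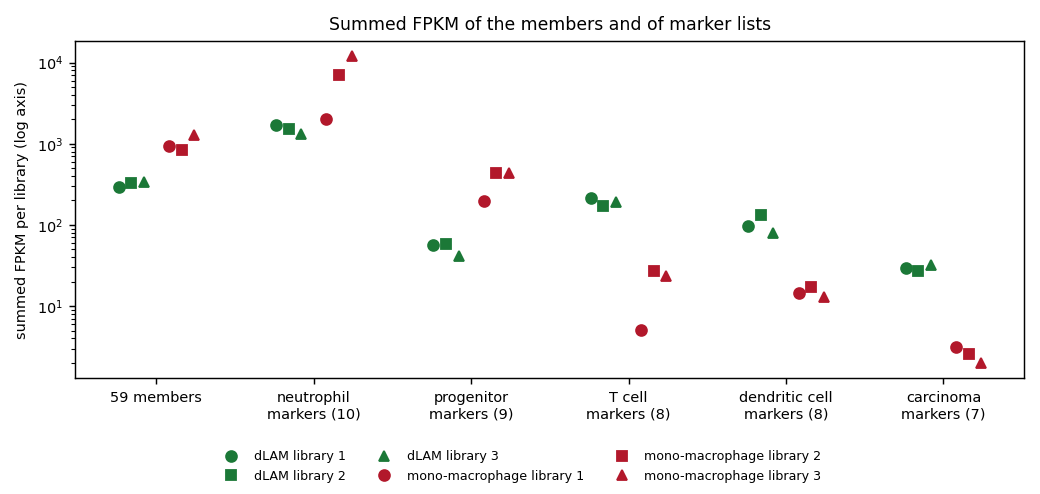
Summed FPKM, on log axes, of the 59 members and of marker lists of other cell types in each of the 6 libraries. The members, neutrophil and progenitor sums are higher in every monocyte-macrophage library than in any dLAM library, and the T cell sums are lower.

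Late cell cycle promoters often carry a cell cycle genes homology region (CHR), the site of the MuvB complex, and CCAAT boxes, the site of NF-Y. Both were searched on either strand in RefSeq promoters of GRCm38.p6, from 250 bases before to 50 bases after each start, as TTTGAA (reverse TTCAAA) and CCAAT (reverse ATTGG). Promoters were matched for 51 of the 59 members. TTTGAA was found in 38 of them (74.5%), in 20.2% of the 27025 genes of the promoter table and in 14.3% of the 7967 tested genes with a promoter. CCAAT was found in 40 (78.4%), against 41.1% and 42.8%, and both in 33 (64.7%), against 7.97% and 5.89%. Of 758 other genes with a promoter that were lower in dLAMs, 18.5% held TTTGAA, as did 13.2% of 1610 genes with a promoter that were higher.

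The following 5 promoters, chosen with their values known, show the arrangement in genes of different function; each runs from 130 bases before the start and ends 30 bases into the transcript. Capitals mark TTTGAA or TTCAAA and CCAAT or ATTGG, and the window is given 5′ to 3′ on the gene's strand.
Ccnb2, chr9:70421525-70421684, minus strand of GRCm38.p6: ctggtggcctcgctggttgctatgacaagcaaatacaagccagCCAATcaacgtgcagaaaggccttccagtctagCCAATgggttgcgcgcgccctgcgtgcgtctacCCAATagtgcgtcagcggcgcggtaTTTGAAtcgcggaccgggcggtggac
Cdc20, chr4:118437314-118437473, minus strand of GRCm38.p6: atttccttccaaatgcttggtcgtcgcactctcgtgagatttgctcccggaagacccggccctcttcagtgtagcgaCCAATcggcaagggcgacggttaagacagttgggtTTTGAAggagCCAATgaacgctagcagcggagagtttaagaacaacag
Cdca8, chr4:124936888-124937047, minus strand of GRCm38.p6: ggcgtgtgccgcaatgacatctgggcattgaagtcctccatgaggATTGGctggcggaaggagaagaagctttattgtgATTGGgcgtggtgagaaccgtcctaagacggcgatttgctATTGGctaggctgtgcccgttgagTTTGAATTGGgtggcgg
Kif11, chr19:37376252-37376411, plus strand of GRCm38.p6: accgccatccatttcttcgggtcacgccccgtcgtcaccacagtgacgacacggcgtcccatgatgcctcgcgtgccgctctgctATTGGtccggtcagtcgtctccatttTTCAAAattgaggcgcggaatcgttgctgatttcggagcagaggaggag
Ube2c, chr2:164769799-164769958, plus strand of GRCm38.p6: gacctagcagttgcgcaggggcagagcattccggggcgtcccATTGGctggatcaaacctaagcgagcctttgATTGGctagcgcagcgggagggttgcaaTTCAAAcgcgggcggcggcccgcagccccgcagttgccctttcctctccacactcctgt

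In Ccnb2, the cyclin B2 gene, 3 CCAAT boxes precede 1 TTTGAA. The Cdca8 window has ATTGG boxes on the other strand, and its TTTGAA shares 1 base with the last of them. In Kif11 and Ube2c the motif stands on the opposite strand, as TTCAAA.

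Match positions were described for the members only, without other promoters for comparison, and the search ended 50 bases after the start. Sites of genes with several starts, such as Ect2 and Prc1, were counted at each start. A TTTGAA match began between 40 bases before and 45 bases after the start in 34 of the 38 promoters, with a median position of -7 over 52 matches. CCAAT matches lay further upstream, between -130 and -1 in 36 of 40 promoters, with a median of -65 over 94 matches. TTTGAA was found in 4 of 4 cytokinesis promoters, 9 of 10 kinesin promoters and 6 of 11 kinetochore promoters. The level ratio had a median of 3.38 (1.49 to 5.08) in the 38 members with TTTGAA and 3.0 (1.07 to 4.55) in the 13 without. Those ranges overlapped widely. Members without the letters in this window ranged from Pttg1, whose groups overlapped, over Mad2l1 and Cenpk, at ratios of 2.20 and 2.47, to Nusap1 at 4.55. For Pttg1 the start used lay 270 bases from its outer start in the GENCODE annotation, and the window did not reach that far. For Cdca8, whose printed window holds TTTGAA, that distance was 2394 bases. Starts were compared only for the printed promoters and Pttg1. A match is a string of letters in the reference and not a measured binding site.

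**Figure D3:**
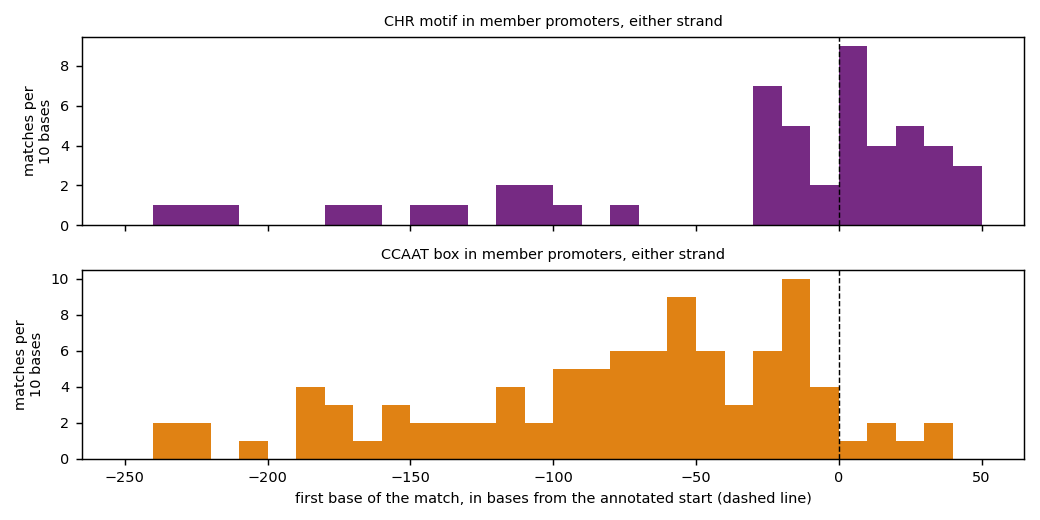
Position relative to the RefSeq start of TTTGAA and CCAAT matches on either strand in the 51 member promoters, in bases, from 250 before to 50 after. TTTGAA matches gather around the start, with a median of -7, and CCAAT matches upstream of it, with a median of -65.

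All 9 genes of mitotic entry were lower in dLAMs, with ratios of 2.49 to 4.54 and a median of 3.59. Ccnb2, the cyclin B2 partner of Cdk1, was at 12.7, 10.4 and 13.1 FPKM in dLAMs and at 40.7, 36.3 and 53.1 FPKM in monocyte-macrophages. Every monocyte-macrophage library was above every dLAM library, with means of 12.1 ± 1.47 and 43.4 ± 8.73 FPKM (SD, n = 3), a ratio of 3.59 and a log2 fold change of -1.75 (SE 0.16, limma adjusted p = 0.00025). Cks2, a small subunit of the kinase, was at 9.08, 12.3 and 8.96 FPKM against 22.3, 23.4 and 29.8 FPKM. It had the smallest ratio of the class at 2.49, with a log2 fold change of -1.24 (SE 0.16, limma adjusted p = 0.0011), and its groups did not overlap. Ccna2, the cyclin A2 gene, was at 3.75, 4.87 and 3.49 FPKM against 16.4, 13.8 and 24.8 FPKM. That was the largest difference of the class, with a ratio of 4.54 and a log2 fold change of -1.91 (SE 0.22, limma adjusted p = 0.0006). Ccnb1, the cyclin B1 gene, was much lower in level than Ccnb2 in both groups, at 0.378, 0.495 and 0.570 FPKM against 1.42, 1.68 and 2.74 FPKM. Its ratio was 4.04, while its log2 fold change was -0.97 (SE 0.18, limma adjusted p = 0.0064), since the added 1 FPKM compresses low genes. The ratio was 3.10 for the kinase gene Cdk1, 4.27 for the polo kinase gene Plk1, 3.81 for the Aurora A gene Aurka, 3.45 for Foxm1, a transcription factor of late cell cycle genes, and 3.39 for Cdca3.

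Of 8 genes of the checkpoint and anaphase, 6 were lower in dLAMs, and the median log2 fold change of -1.13 was the closest to 0 of the 8 classes. Bub1b, which encodes the checkpoint protein BubR1, was at 9.82, 10.5 and 11.1 FPKM in dLAMs and at 25.8, 20.8 and 30.8 FPKM in monocyte-macrophages. The groups were apart by a ratio of 2.46 and a log2 fold change of -1.21 (SE 0.15, limma adjusted p = 0.00083). Ube2c, the ubiquitin-conjugating enzyme that works with APC/C, was at 5.13, 6.82 and 6.17 FPKM against 22.4, 16.5 and 22.6 FPKM. It had the largest log2 fold change of the class at -1.61 (SE 0.15, limma adjusted p = 0.0003), with a ratio of 3.40. Cdc20, the APC/C activator of early anaphase, had a ratio of 2.32 and a log2 fold change of -1.05 (SE 0.13, limma adjusted p = 0.00081). Among checkpoint kinases the ratio was 4.06 for Bub1 and 4.98 for Ttk, which was at 0.649, 0.460 and 0.746 FPKM against 2.52, 2.05 and 4.67 FPKM. Mad2l1, a checkpoint inhibitor of APC/C, had a ratio of 2.20 and a log2 fold change of -0.67 (SE 0.17, limma adjusted p = 0.019). That call was lost without dLAM library 1 or without dLAM library 2 (limma adjusted p = 0.069 and 0.067).

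Separase and its inhibitor did not pass the test. Espl1, the separase gene, was at 4.28, 4.6 and 4.42 FPKM in dLAMs and at 6.44, 5.12 and 8.29 FPKM in monocyte-macrophages. Its groups did not overlap, but the ratio was 1.49 and the log2 fold change -0.47 (SE 0.16, limma adjusted p = 0.066). The limma adjusted p of Espl1 ran from 0.018, without monocyte-macrophage library 2, to 0.17, without dLAM library 1, and was 0.044 with median-of-ratios scaling and 0.030 after quantile normalization. Pttg1, the gene of securin, which holds separase inactive, was at 1.71, 1.56 and 1.80 FPKM against 1.71, 1.86 and 1.83 FPKM. These values overlapped, with means of 1.69 ± 0.122 and 1.80 ± 0.0802 FPKM (SD, n = 3), a ratio of 1.07 and a log2 fold change of -0.06 (SE 0.12, limma adjusted p = 0.75). They rest on an estimated 38 to 62 fragments per library.

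The chromosomal passenger complex, in which Incenp anchors the kinase Aurora B and borealin guides it to the centromere, was lower in all 3 members. Incenp was at 24.4, 27.9 and 26.3 FPKM in dLAMs and at 53.2, 48.0 and 58.6 FPKM in monocyte-macrophages, a ratio of 2.03. Its log2 fold change was -0.99 (SE 0.11, limma adjusted p = 0.0005), the smallest of the complex. The Aurora B gene Aurkb was at 1.81, 2.57 and 2.26 FPKM against 8.54, 6.67 and 8.55 FPKM, with a ratio of 3.57 and a log2 fold change of -1.47 (SE 0.15, limma adjusted p = 0.00036). The borealin gene Cdca8 was at 2.17, 2.72 and 2.50 FPKM against 7.86, 7.00 and 9.76 FPKM, with a ratio of 3.34 and a log2 fold change of -1.40 (SE 0.14, limma adjusted p = 0.00042). Incenp was thus the most abundant of the complex in both groups. The level of Incenp was 13.5, 10.8 and 11.6 times that of Aurkb in dLAMs and 6.23, 7.19 and 6.85 times in monocyte-macrophages, without overlap. Birc5, the survivin gene of the same complex, chosen after its values were seen, had a ratio of 3.48 (log2 fold change -1.56).

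Of 12 centromere and kinetochore genes, 11 were lower in dLAMs, with ratios over the class of 2.13 to 4.21 and a median of 3.0. Ndc80, the microtubule-binding subunit of the outer kinetochore, was at 7.25, 6.72 and 8.60 FPKM in dLAMs and at 22.9, 22.3 and 32.0 FPKM in monocyte-macrophages. The difference was the largest of the class on the log2 scale, at -1.64 (SE 0.16, limma adjusted p = 0.00033), a ratio of 3.43. The other subunits of its complex had ratios of 4.21 for Nuf2, 3.52 for Spc24 and 3.91 for Spc25. Cenpe, the kinetochore motor CENP-E, was at 6.78, 7.38 and 8.22 FPKM against 18.7, 15.9 and 26.9 FPKM. Here the ratio was 2.75 and the log2 fold change -1.32 (SE 0.19, limma adjusted p = 0.0016). Cenpa, the histone H3 variant that marks centromeres, had a ratio of 2.58 (log2 fold change -1.07). Cenpw, of the histone-fold inner kinetochore, did not pass, at 1.07, 0.431 and 1.49 FPKM against 1.6, 2.50 and 2.30 FPKM. Its lowest monocyte-macrophage value was close above its highest dLAM value, and its log2 fold change was -0.67 (SE 0.23, limma adjusted p = 0.061). It passed without dLAM library 3 (limma adjusted p = 0.039), with median-of-ratios scaling (0.041), after quantile normalization (0.015) and with a term for Y-linked RNA (0.038). Cenpk, an inner kinetochore gene at -0.83 on the log2 scale (SE 0.21, limma adjusted p = 0.019), no longer passed without dLAM library 1 or without dLAM library 2 (limma adjusted p = 0.072 and 0.067).

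The kinesins of mitosis, motors that slide or shorten spindle microtubules, were lower in all 10 members tested. Kif11, the motor Eg5 that pushes spindle poles apart, had the largest difference of all 59 members. It was at 7.14, 9.66 and 10.3 FPKM in dLAMs and at 39.8, 36 and 62.0 FPKM in monocyte-macrophages, with means of 9.04 ± 1.68 and 45.9 ± 14.0 FPKM (SD, n = 3). The ratio was 5.08 and the log2 fold change -2.20 (SE 0.22, limma adjusted p = 0.00035), and 41 of the 11317 genes tested had a log2 fold change as low or lower, Kif11 included. Kif23, a motor of the central spindle, was at 7.64, 10.0 and 9.69 FPKM against 27.4, 24.9 and 37.5 FPKM. It differed by a ratio of 3.28 and a log2 fold change of -1.6 (SE 0.17, limma adjusted p = 0.0005). Kif2c, which takes apart microtubule ends at the centromere, had the smallest log2 fold change of the motors tested. Its values of 2.13, 1.76 and 1.94 FPKM against 4.18, 4.22 and 8.03 FPKM gave a ratio of 2.82 and a log2 fold change of -1.09 (SE 0.22, limma adjusted p = 0.0092). Kif18a, a motor that damps chromosome movement, was too low for the filter, at 0.375, 0.657 and 0.569 FPKM against 1.16, 0.910 and 1.91 FPKM. Its groups did not overlap, and in the fit with no filter its log2 fold change was -0.58 (SE 0.19, limma adjusted p = 0.087).

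**Figure D4:**
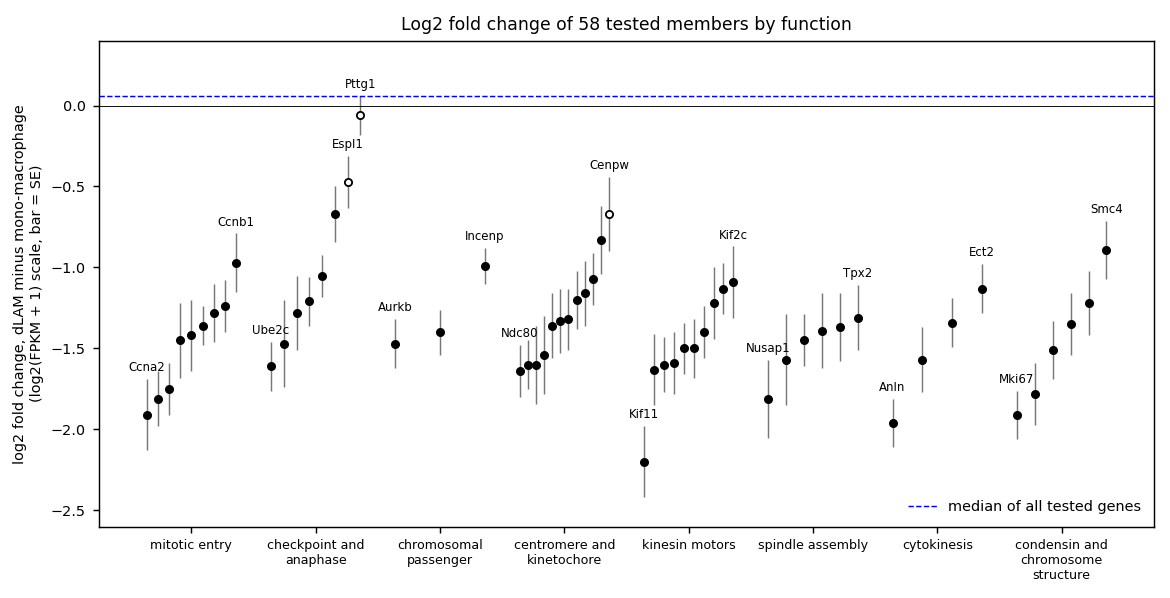
Log2 fold change, dLAM minus monocyte-macrophage on the log2(FPKM + 1) scale, of the 58 tested members by function, with SE bars, where filled points passed the test and open points did not. All members lie below the dashed median of all genes tested (0.06), from -2.20 for Kif11 to -0.06 for Pttg1.

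All 6 spindle assembly genes were lower in dLAMs, with ratios of 2.76 to 4.55. Tpx2, which activates Aurora A and starts microtubules near chromosomes, was at 6.35, 7.85 and 7.00 FPKM in dLAMs and at 17.2, 14.9 and 26.4 FPKM in monocyte-macrophages. That was the smallest log2 fold change of the class, -1.31 (SE 0.20, limma adjusted p = 0.0024), at a ratio of 2.76. Ckap2l, of the mitotic spindle, was at 5.41, 5.72 and 6.55 FPKM against 15.0, 16.4 and 22.7 FPKM, a ratio of 3.06 (log2 fold change -1.45, SE 0.16, limma adjusted p = 0.00057). Nusap1, which bundles spindle microtubules, was at 3.11, 3.05 and 2.71 FPKM against 11.1, 9.47 and 19.8 FPKM. This gene led the class with a ratio of 4.55 and a log2 fold change of -1.81 (SE 0.24, limma adjusted p = 0.0013), though its highest monocyte-macrophage value stood well above the other two.

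The 4 cytokinesis genes were all lower in dLAMs as well, with ratios of 3.02 to 4.72. Anln encodes anillin, the scaffold of the contractile ring, and was at 3.39, 3.93 and 3.70 FPKM in dLAMs and at 16.0, 14.6 and 21.4 FPKM in monocyte-macrophages. Its ratio of 4.72 came with a log2 fold change of -1.96 (SE 0.15, limma adjusted p = 0.00013). Racgap1, the partner of Kif23 in the central spindle, was at 2.78, 3.19 and 3.63 FPKM against 11.2, 7.97 and 9.82 FPKM, and was an exception to the rank of the libraries, with monocyte-macrophage library 1 highest. It had a ratio of 3.02 and a log2 fold change of -1.34 (SE 0.15, limma adjusted p = 0.00058). Ect2, the exchange factor that activates RhoA at the furrow, was at 1.19, 1.34 and 1.5 FPKM against 3.47, 4.0 and 5.0 FPKM. The smallest log2 fold change of the class was that of Ect2, -1.13 (SE 0.15, limma adjusted p = 0.0011), at a ratio of 3.10. Prc1, which crosslinks the midzone microtubules, had a ratio of 4.32.

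All 6 genes of condensin and chromosome structure were lower, with ratios of 1.94 to 3.85. Mki67, whose protein Ki-67 coats mitotic chromosomes and is used to stain cycling cells, was at 44.3, 52.2 and 53.9 FPKM in dLAMs and at 186, 161 and 231 FPKM in monocyte-macrophages. The means were 50.1 ± 5.09 and 193 ± 35.4 FPKM (SD, n = 3), with a ratio of 3.85 and a log2 fold change of -1.91 (SE 0.15, limma adjusted p = 0.00014). Top2a, the topoisomerase that untangles sister DNA, was at 11.8, 14.0 and 12.7 FPKM against 44.8, 36.2 and 61.9 FPKM. It was lower in dLAMs by a log2 fold change of -1.78 (SE 0.19, limma adjusted p = 0.00044), a ratio of 3.71. Smc4, an ATPase core subunit shared by both condensins, was at 21.3, 19.1 and 22.2 FPKM against 31.9, 36.6 and 53.0 FPKM. It had the smallest difference of the class, with a ratio of 1.94 and a log2 fold change of -0.89 (SE 0.18, limma adjusted p = 0.0085).

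Within condensin the ratios were not equal. The ratio was 2.53 for Smc2, the other core subunit, and 3.66 for Ncapg and 3.58 for Ncaph, both of condensin I, whose subunit gene Ncapd2, in a related list, had 2.31. The level of Smc4 was 16.5, 12.6 and 13.4 times that of Ncapg in dLAMs and 7.57, 7.61 and 7.26 times in monocyte-macrophages. These ranges did not overlap, and the level of Smc4 over that of Ncaph was 7.93 ± 1.08 against 4.25 ± 0.584 (SD, n = 3). The HEAT-repeat subunit genes Ncapg2 and Ncapd3 of condensin II were lower in dLAMs (log2 fold changes -0.69 and -0.85, limma adjusted p = 0.0064 and 0.0094), and Ncaph2 was at -0.10 (limma adjusted p = 0.49).

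Other genes of mitosis and its surroundings were taken from 9 lists of 156 genes in all. Of 48 other mitotic genes, 35 were lower in dLAMs and 0 higher with no filter, and all 3 dLAM values lay below all 3 monocyte-macrophage values in 47. The filter kept 45, of which 42 were lower and 0 higher, with a median log2 fold change of -1.17, and 5 of those tested reached 1 FPKM in no dLAM library. The largest ratio named here was that of Depdc1b, at 1.13 ± 0.104 against 7.28 ± 2.08 FPKM (SD, n = 3), a ratio of 6.42. The kinase gene Pbk had a ratio of 5.51, the phosphatase gene Cdkn3 one of 4.44, and Hmgb2, a chromatin protein gene, one of 3.31. Other parts of the same machines were listed as constitutive, meaning present through the whole cell cycle, which was not tested here. Of 15 constitutive kinetochore and checkpoint genes 6 were lower and 0 higher (median -0.31), led by Kntc1, of the complex that brings dynein to kinetochores, at -1.02 (limma adjusted p = 0.013). That count was 2 with no filter, 1 without dLAM library 1, 2 without dLAM library 2, 3 without dLAM library 3 and 2 without monocyte-macrophage library 3.

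APC/C, which ends mitosis, was near level between the groups in its core. Of 16 subunit genes and partners 2 were lower and 1 higher, with a median log2 fold change of -0.08. The lower ones were Ube2s, which extends the ubiquitin chains, at -0.63 and Anapc13 at -0.38 (limma adjusted p = 0.016 and 0.032), and the higher one was the cullin subunit gene Anapc2 at 0.32 (limma adjusted p = 0.024). The lower count was 0 without dLAM library 1 or 3 and 1 without dLAM library 2 or monocyte-macrophage library 1 or 3. The higher count was 0 without any 1 dLAM library or monocyte-macrophage library 2. Of 10 cohesin genes 4 were lower and 0 higher (median -0.24), among them Rad21, the ring subunit that separase cuts, with dLAM and monocyte-macrophage means of 77.7 ± 3.11 and 110 ± 13 FPKM (SD, n = 3), lower by -0.49 on the log2 scale (limma adjusted p = 0.015). Rad21 did not pass without dLAM library 2 or 3 (limma adjusted p = 0.054 and 0.057), and the cohesin count was 1 without dLAM library 1 or 3, 0 without dLAM library 2 and 2 without monocyte-macrophage library 1.

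The 12 phosphatases and inhibitors of mitotic exit had a median of 0.02, with 3 lower and 0 higher. Fbxo5, the gene of the APC/C inhibitor Emi1, was lower by -1.5 (limma adjusted p = 0.00026), and Ppp2r5a, a regulatory subunit of phosphatase PP2A, by -1.23 (limma adjusted p = 0.00013). Other kinesins mostly carry cargo outside mitosis. Of 18 genes of other kinesins and their partner subunits 17 were tested, and 9 were higher in dLAMs and 1 lower. Their median was 0.41 against -1.5 for the mitotic motors. Kif3a, a motor of cilia and transport, was higher with means of 3.39 ± 0.520 and 1.40 ± 0.118 FPKM (SD, n = 3; log2 scale 0.87, limma adjusted p = 0.0025), as was its adaptor gene Kifap3 at 0.76 (limma adjusted p = 0.004). The one lower gene was Kif13a at -0.33 (limma adjusted p = 0.025). The higher count was 5 without dLAM library 2 or 3, and the lower count was 0 on leaving out any 1 library other than monocyte-macrophage library 1. With no filter 8 were higher and 3 lower. None of 13 promoters of these kinesins held TTTGAA, against 9 of 10 for the mitotic motors.

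Of the regulators that read such promoters (20 genes of the MuvB complex and the Myb and E2F families), 18 were tested, 6 were lower and 2 higher, with a median of -0.28, and with no filter 5 were lower and 2 higher. E2f2, an activator, was at 8.22, 10.6 and 12.5 FPKM in dLAMs and at 39.0, 37.0 and 33.6 FPKM in monocyte-macrophages, without overlap. Its ratio was 3.50 and its log2 fold change -1.73 (limma adjusted p = 0.00021). E2f8, an atypical repressor of the family, was lower by -1.6 (limma adjusted p = 0.00042), and Mybl2, the B-Myb gene whose protein joins MuvB, by -0.96 (limma adjusted p = 0.0065). The repressor gene E2f5 was higher, with means of 2.85 ± 0.123 and 0.971 ± 0.128 FPKM (SD, n = 3), a difference of 0.97 on the log2 scale (limma adjusted p = 0.0009), and E2f4 was higher at 0.32 (limma adjusted p = 0.034). The other activator genes E2f1 and E2f3 were at 0.33 and 0.27 (limma adjusted p = 0.26 and 0.18). E2f4 was the call lost, and the higher count 1, on leaving out any 1 library other than monocyte-macrophage library 1.

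Of 14 genes of the S phase, the phase of DNA synthesis before mitosis, 8 were lower and 0 higher, with a median of -0.52, and 7 were lower with no filter. Rrm2, the ribonucleotide reductase subunit, was at 5.72 ± 0.693 against 24.6 ± 4.91 FPKM (SD, n = 3), a ratio of 4.30. The cyclin E2 gene Ccne2 was below 1 FPKM in every dLAM library, at 0.721, 0.616 and 0.548 FPKM against 2.42, 1.85 and 4.26 FPKM, and was lower by -1.19 (limma adjusted p = 0.0062, or 0.022 with no filter). Of the replicative helicase genes, Mcm5 and Mcm7 were lower, at -0.82 and -0.58 (limma adjusted p = 0.0038 and 0.025). Mcm2, Mcm3, Mcm4 and Mcm6 were at -0.07, 0.02, -0.33 and -0.11 and did not pass. The count was 4 without dLAM library 1 or without dLAM library 2. In these lists Ncaph2, Mybl2, E2f1, E2f3 and the Mcm genes were named after their values were seen.

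**Figure D5:**
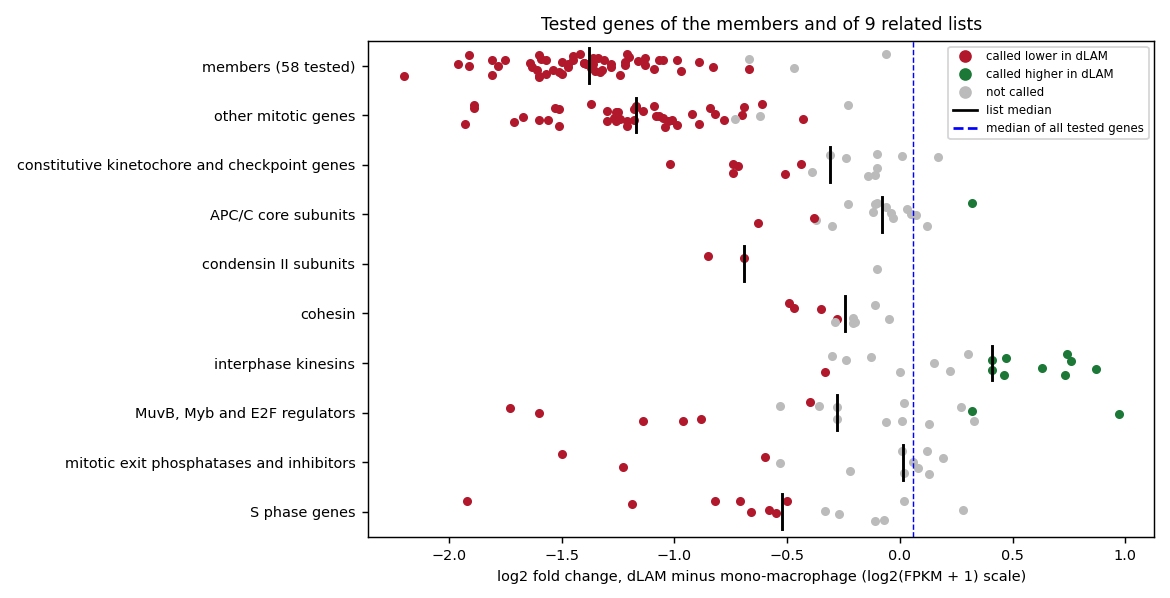
Log2 fold change, dLAM minus monocyte-macrophage on the log2(FPKM + 1) scale, of each tested gene of the 59 members and of 9 related lists, with a black bar at each list's median. The members (median -1.38) and other mitotic genes (-1.17) lie mostly below -1.0, APC/C subunits lie near 0, and interphase kinesins have a median of 0.41.

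Multi-mapping reads and strand handling are not described in the sources used here, so members with near-identical copies or overlapping genes are uncertain in level. The fit with the Y-linked difference as a term gave 56 lower members, and the fit of the 2 dLAM and 2 monocyte-macrophage libraries with less Y-linked RNA gave 54.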

How the data were processed

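Bulk RNA from 3 dLAM and 3 monocyte-macrophage libraries was analysed. The authors deposited 1 table of FPKM for 34652 genes. Per the submitters' processing notes, the tools were FastQC, HISAT2 and featureCounts and the build mm10. Versions, strand, annotation and gene lengths: not given in the sources used here. No count model was run on FPKM. Depth was estimated from the steps of the lowest values and GENCODE M21 exon lengths (94.5% of symbols matched), and a gene with 2 kb of exon gains 0.0294 to 0.0405 FPKM per fragment.

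Genes with at least 1 FPKM in at least 3 of 6 libraries (11317) were fitted as log2(FPKM + 1) in limma 3.58.1 (R 4.3.3) with 1 group term, empirical Bayes moderation with a trend and Benjamini-Hochberg adjustment over all genes, with a threshold of 0.05. The script was tested on simulated data. Ratios are of mean FPKM, monocyte-macrophage over dLAM. Fold changes on this log scale understate those of low genes. Tables and figures used Python 3.11.15, pandas 2.3.3, numpy 2.4.6 and matplotlib 3.10.9.

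Members, gene lists and classes were chosen with earlier results of these data known. In each class the genes named with values in every library were the 2 with the highest mean, those with the largest and smallest log2 fold change and those not called or not tested. Top2a and Ttk met none of these rules and were named as well. In the other lists they were genes called against the list's majority and those with the largest differences. In most marker lists they were the 2 most abundant. Tpsb2 of the mast cell list, Cd79a of the B and plasma cell list and all genes of the dendritic cell list were left out. Other members named with ratios, further markers, the partner ratios and the printed promoters were chosen after their values were seen. Alternatives covered the filter, the pseudocount, scaling, the Y-linked difference, a replicate block, moderation without a trend, and leaving out each library. Promoter sequences are RefSeq's, for GRCm38.p6.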

Additional observations from a re-analysis of the deposited data

How the results depend on the processing

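The number of members lower in dLAMs was 53 with no filter, 42 of 43 with a filter of 5 FPKM, 55 after rescaling to a fixed sum, 57 with median-of-ratios scaling, 57 after quantile normalization, and 53 to 56 when 1 library was left out. In all these settings 0 members were higher. With a replicate block it was 55. Replicate numbers are shared between the groups, but same-numbered libraries did not deviate together (r = 0.19, -0.15 and -0.09). Libraries with different numbers reached r = 0.39. With 3 libraries per group, these values cannot say whether same-numbered libraries share a mouse, a pool or a day. Over 17 other settings 54 members kept their call wherever tested, Cenpk and Mad2l1 lost it in at least 1, Cenpw and Espl1 gained it in at least 1, and no direction reversed. The median log2 fold change of the members was -1.69 with a pseudocount of 0.1 in place of 1, as the smaller pseudocount compresses low genes less, and -1.48 to -1.20 when 1 library was left out.

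Over all genes tested, 1204 lower and 2249 higher calls (65.1% higher) became 1642 and 1834 (52.8% higher) after quantile normalization, which moved the median of all genes from 0.06 to -0.04, and 1526 and 1891 with median-of-ratios scaling. The lower count fell to 780 in the fit of the libraries with less Y-linked RNA, where 1480 were higher, and to 780 without dLAM library 2. With a filter of 5 FPKM, which tests fewer genes, 1247 were higher. The replicate block gave 999 lower and 1860 higher. Among the related lists the constitutive kinetochore count fell from 6 to 2 with no filter and to 3 in the libraries with less Y-linked RNA, where 5 S phase genes, 2 cohesin genes and 0 APC/C genes were lower and 4 interphase kinesins higher. Cohesin had 2 lower after rescaling to a fixed sum, with the block or without the trend. With median-of-ratios scaling 0 APC/C genes and 1 regulator were higher, and 3 interphase kinesins lower. A filter of 5 FPKM, which leaves fewer genes, gave 19 lower other mitotic genes. Depth limits the lowest members most: Ccnb1 rests on an estimated 24 to 30 fragments in each dLAM library, and 3 libraries per group limit every test.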
